A study of Mus musculus and Homo sapiens with 12 samples.

Results

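The genes of mitochondrial protein import and of mitochondrial proteolysis and processing were followed in T-cell acute lymphoblastic leukaemia (T-ALL) cells of human and mouse. Members were the rows whose symbol, in either letter case, began with TIMM or TOMM and a digit, or was LONP1, CLPP, CLPX, YME1L1, AFG3L2, SPG7, SAMM50, PMPCA, PMPCB, GRPEL1, PHB or PHB2. They numbered 31 of the 11513 rows of the human table and 33 of the 10430 rows of the mouse table. Of these, 30 symbols stood in both tables, and human TIMM8A with mouse Timm8a1 made 31 pairs, so Timm23 and Tomm5 were listed in mouse only. The rule reads symbols and no measured value.

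RNA sequencing covered 12 libraries, 2 in each group. The human line KOPTK1, an established culture of T-ALL cells, was exposed for 72 h to a gamma-secretase inhibitor (gSI, Compound E) or to its carrier DMSO. Gamma-secretase is the protease that releases the active part of NOTCH1 from the membrane. The mouse cells came from T-ALL driven by NOTCH-delta E, a NOTCH1 form that is active without ligand, in C57BL/6 mice given secondary transplants. These mice spent 3 weeks on food labelled as holding 0, 0.4 or 0.8 g/kg of the essential amino acid valine, or 8 g/kg in the control diet, and GFP-positive leukaemic cells were sorted from their spleens. The protocol text names the 0.4 and 0.8 doses in g/L of drinking water beside valine-deficient food, so the diets are used here as ranks. Each diet had a library named TALL2 and a library named TALL3, names that the labels do not explain. Both human groups shared the cell line, and all mouse groups held T-ALL driven by NOTCH-delta E. Whether TALL2 and TALL3 were the same leukaemia is not stated. The labels do not say that libraries of a group came from separate cultures or animals, so the p-values measure only the spread between these libraries. Values of a group are given as replicate 1 then 2 in KOPTK1, and as TALL2 then TALL3 in mouse.

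Nearly all mitochondrial proteins are made in the cytosol and enter through the translocase of the outer membrane (TOM), whose receptors hand precursors to a channel. Beyond it, small TIM chaperones carry hydrophobic precursors across the intermembrane space, the TIM23 complex and its motor pull presequence proteins into the matrix, and the TIM22 complex inserts carrier proteins into the inner membrane. A processing peptidase then cuts off the presequence, and proteases of the matrix and the inner membrane remove damaged or surplus proteins and mature others. Dividing leukaemic T cells need this machinery to build new mitochondria.

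Values were FPKM, fragments scaled by gene length and by the mapped reads of the library, as the authors deposited them. Reads per gene were worked back from these values, and the listed genes held 22939478 to 42245079 reads in the KOPTK1 libraries and 14222895 to 37687253 in the mouse libraries. The gene length behind the values had a median of 29957 bp in the human table and 3180 bp in the mouse table, so human FPKM are low for their reads and levels are not compared between species. Of 5 NOTCH targets, HES1, HES4, DTX1, NOTCH3 and MYC, all 5 fell under gSI, with a median log2 fold change of -2.52. The 11 T-ALL and thymocyte markers listed in human summed to 204 and 217 FPKM under gSI, against 344 and 337 FPKM in DMSO, and their part in the results below was not tested. In the bulk mouse samples fewer cells of a type and less RNA per cell cannot be told apart.

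In KOPTK1 the inhibitor moved the members in both directions. Of the 28 members with a mean of at least 1 FPKM, 5 rose and 8 fell at an adjusted p under 0.05 by limma on log2(FPKM + 1), and 15 did not pass. Over all 6679 tested genes 53.1% were called, 22.8% as rises and 30.3% as falls, so the members' share did not exceed that of other genes. Their median log2 fold change was -0.02, beside -0.03 over all tested genes. The summed FPKM of the 31 members was 146 and 154 under gSI, against 162 and 159 in DMSO. All fold changes here are on the log2(FPKM + 1) scale, which understates the change of low genes.

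**Figure D1:**
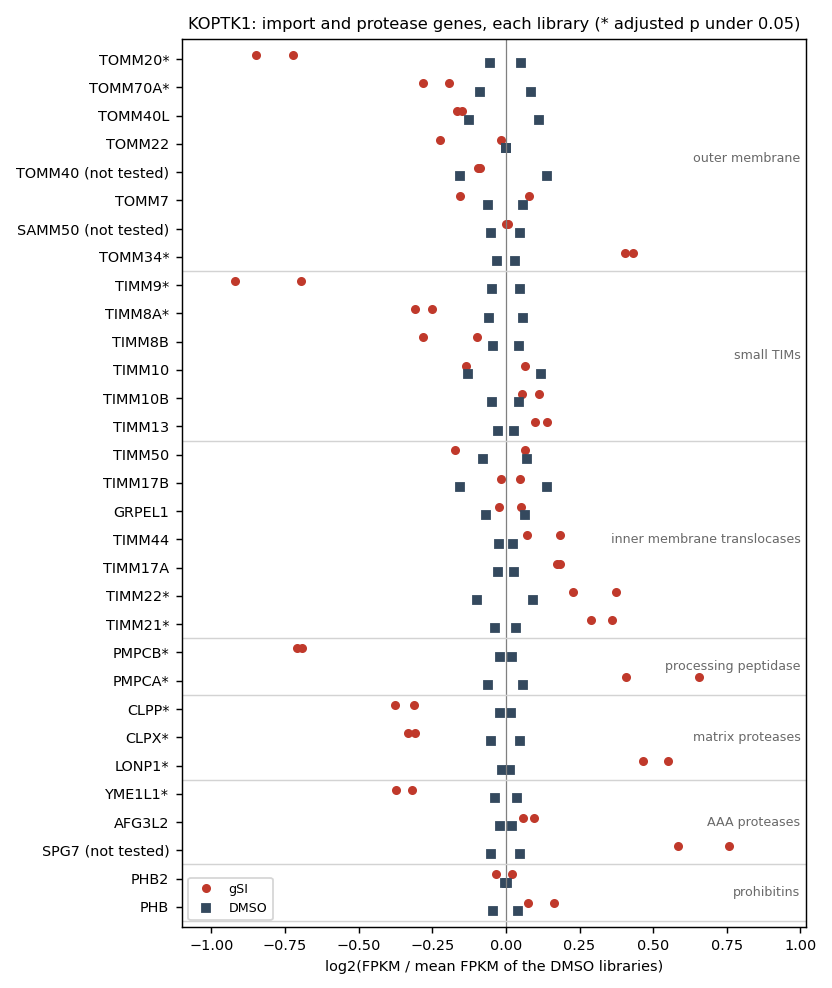
Each human member by role, with the FPKM of each library divided by the mean of the DMSO libraries on a log2 axis, for gSI (red circles) and DMSO (dark squares), 2 libraries each. TOMM20, TIMM9 and PMPCB lie farthest to the left, LONP1, PMPCA and TOMM34 to the right among tested genes, and PHB2 lies at 0.

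Among the 6 tested genes grouped with the outer membrane, which include the cytosolic TOMM34, 1 rose and 2 fell. TOMM20, a receptor for presequence proteins, had 6.55 and 6.0 FPKM under gSI, against 11.2 and 10.4 FPKM in DMSO. Both gSI libraries were far below both DMSO libraries, and TOMM20 fell by 41.9% in mean FPKM (log2 fold change -0.70, SE 0.0792, limma adjusted p = 3.9e-08). TOMM70A, a receptor for carrier precursors, had 6.07 and 5.72 FPKM under gSI, against 7.36 and 6.53 FPKM in DMSO. The groups did not overlap, and TOMM70A fell (log2 fold change -0.20, SE 0.0791, adjusted p = 0.0331), though this call was lost in 6 of 13 alternative settings, among them each fit without 1 of the gSI libraries or without DMSO replicate 1 (adjusted p up to 0.309). In every fit with a library left out, the lone library of its group is assumed to vary like the other group's pair. TOMM34, a cytosolic co-chaperone of import, moved the other way, with 2.89 and 2.95 FPKM under gSI, against 2.23 and 2.14 FPKM in DMSO. It rose in both libraries (log2 fold change 0.30, SE 0.0705, adjusted p = 7.8e-04).

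The other outer membrane genes did not pass. TOMM22, the central receptor, had 15.4 and 17.8 FPKM under gSI, against 18.0 and 18.0 FPKM in DMSO, with the second gSI library near the DMSO level (log2 fold change -0.11, SE 0.0841, adjusted p = 0.257). TOMM7, a small subunit, had 4.29 and 5.05 FPKM under gSI, against 4.58 and 4.98 FPKM in DMSO, and the groups overlapped. TOMM40L, a paralogue of the channel protein, had 2.74 and 2.71 FPKM under gSI, against 2.79 and 3.29 FPKM in DMSO (log2 fold change -0.11, SE 0.0756, adjusted p = 0.207), and it passed in the fit without DMSO replicate 1 (-0.20, adjusted p = 0.032). The channel gene itself, TOMM40, and SAMM50, the core of the machinery that sorts barrel proteins into the outer membrane, lay under 1 FPKM on average and were not tested. TOMM40 had 0.862 and 0.857 FPKM under gSI, against 0.822 and 1.01 FPKM in DMSO, from 116 to 252 reads. SAMM50 had 0.905 and 0.909 FPKM under gSI, against 0.874 and 0.937 FPKM in DMSO, from 1037 to 2244 reads, and both genes overlapped between the groups. With the receptor TOMM20 lower and TOMM22 nearly level, the ratio of TOMM20 to TOMM22 FPKM was 0.427 and 0.336 under gSI, against 0.622 and 0.578 in DMSO.

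Of the 6 small TIM chaperones none rose and 2 fell. TIMM9, a subunit of the hexamer that carries inner membrane proteins, had 1.32 and 1.13 FPKM under gSI, against 2.21 and 2.07 FPKM in DMSO. Its levels lay well apart, and it fell by 42.8% in mean FPKM (log2 fold change -0.50, SE 0.0653, adjusted p = 4.3e-07). TIMM10, its partner in that hexamer, had 4.4 and 5.05 FPKM under gSI, against 5.24 and 4.42 FPKM in DMSO, with full overlap (log2 fold change -0.03, adjusted p = 0.817). TIMM8A, which pairs with TIMM13 in a second hexamer, had 1.01 and 1.05 FPKM under gSI, against 1.3 and 1.2 FPKM in DMSO. It fell (log2 fold change -0.15, SE 0.0562, adjusted p = 0.0278) on only 99 to 167 reads a library, and 6 alternative settings lost the call, among them each fit without 1 of the gSI libraries or without DMSO replicate 1 (adjusted p up to 0.268).

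TIMM8B, the paralogue of TIMM8A, had 4.96 and 5.63 FPKM under gSI, against 6.21 and 5.84 FPKM in DMSO (log2 fold change -0.16, SE 0.0788, adjusted p = 0.0888). Its fold change was close to that of TIMM8A but did not pass. The ratio of TIMM8A to TIMM8B was 0.203 and 0.187 under gSI, against 0.21 and 0.206 in DMSO. TIMM13 (log2 fold change 0.10, adjusted p = 0.264) and TIMM10B (0.08, adjusted p = 0.426) were slightly higher in both gSI libraries and did not pass.

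The 7 tested genes of the inner membrane translocases and their motor included 2 rises and no fall. TIMM22, the channel for carrier proteins, had 3.32 and 3.67 FPKM under gSI, against 2.65 and 3.02 FPKM in DMSO. It rose (log2 fold change 0.23, SE 0.0764, adjusted p = 0.0131), with adjusted p up to 0.264 in the fits without gSI replicate 2 or without DMSO replicate 1. TIMM21, which in yeast links the TIM23 complex to the outer translocase, had 1.83 and 1.74 FPKM under gSI, against 1.46 and 1.39 FPKM in DMSO. It too rose (log2 fold change 0.20, SE 0.0627, adjusted p = 0.0084), a call that was lost without either gSI library (adjusted p up to 0.158).

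The paralogues TIMM17A and TIMM17B, alternative subunits of the TIM23 channel, did not pass. TIMM17A had 2.62 and 2.64 FPKM under gSI, against 2.37 and 2.28 FPKM in DMSO. Both gSI libraries were higher (log2 fold change 0.13, SE 0.0701, adjusted p = 0.131), and it passed under median-of-ratios scaling (adjusted p = 0.0323) and quantile normalization (adjusted p = 0.0251). TIMM17B had 4.4 and 4.6 FPKM under gSI, between the 4.0 and 4.91 FPKM of DMSO (log2 fold change 0.02, adjusted p = 0.882). TIMM44, which tethers the motor to the channel, TIMM50, the presequence receptor, and GRPEL1, the nucleotide exchange factor of the motor, had log2 fold changes of 0.09, -0.04 and 0.01, with adjusted p of 0.289, 0.702 and 0.909.

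The 2 subunits of the processing peptidase went in opposite directions. PMPCB, the catalytic subunit, had 3.37 and 3.41 FPKM under gSI, against 5.59 and 5.43 FPKM in DMSO. PMPCA, the subunit that recognises the presequence, had 2.37 and 2.81 FPKM under gSI, against 1.86 and 1.71 FPKM in DMSO. Neither gene overlapped between the groups: PMPCB fell (log2 fold change -0.57, SE 0.0744, adjusted p = 4.1e-07) and PMPCA rose (log2 fold change 0.36, SE 0.0727, adjusted p = 1.4e-04). Both calls were kept in all 12 alternative settings that gave them a value. The ratio of PMPCA to PMPCB FPKM was thus 0.704 and 0.826 under gSI, against 0.333 and 0.316 in DMSO.

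The matrix proteases showed the same split. LONP1, a protease that degrades damaged matrix proteins and helps maintain mitochondrial DNA, had 2.94 and 3.12 FPKM under gSI, against 2.11 and 2.15 FPKM in DMSO. It rose (log2 fold change 0.36, SE 0.0708, adjusted p = 1.0e-04). The subunits of the other matrix protease both fell. CLPP, the proteolytic chamber, had 4.85 and 5.07 FPKM under gSI, against 6.37 and 6.21 FPKM in DMSO (log2 fold change -0.29, SE 0.0757, adjusted p = 0.00203). CLPX, the unfoldase that feeds it, had 2.36 and 2.32 FPKM under gSI, against 3.02 and 2.82 FPKM in DMSO (log2 fold change -0.23, SE 0.0713, adjusted p = 0.00861). No gSI library overlapped a DMSO library in any of the 3 genes. The call of CLPP was lost without gSI replicate 1 (adjusted p = 0.0734), and that of CLPX without either gSI library (adjusted p up to 0.137). CLPX and CLPP moved by similar amounts, and their FPKM ratio was 0.487 and 0.458 under gSI, against 0.473 and 0.454 in DMSO. The ratio of LONP1 to CLPP was 0.606 and 0.616 under gSI, against 0.332 and 0.347 in DMSO.

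**Figure D2:**
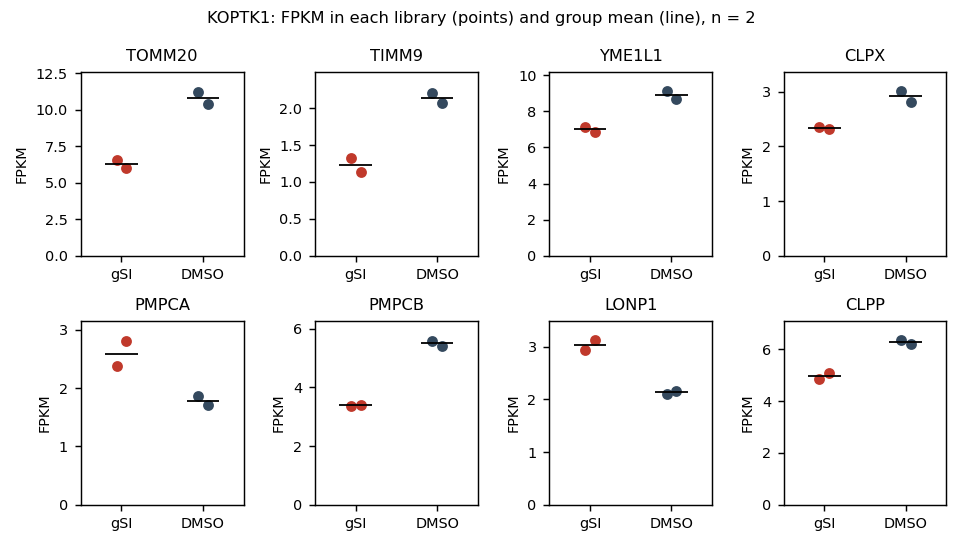
FPKM of 8 members in each KOPTK1 library (points) with the group mean (line), gSI left of DMSO, n = 2 each, axes from 0. In PMPCA and LONP1 the gSI libraries stand above DMSO, and in TOMM20, TIMM9, YME1L1, CLPX, PMPCB and CLPP below, with no overlap in any panel.

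Among the inner membrane AAA proteases, YME1L1, which faces the intermembrane space and turns over import components, had 7.15 and 6.88 FPKM under gSI, against 9.14 and 8.69 FPKM in DMSO. It fell (log2 fold change -0.31, SE 0.0774, adjusted p = 0.00153), with an adjusted p of 0.0608 without gSI replicate 2. AFG3L2, a subunit of the protease facing the matrix, had 2.28 and 2.34 FPKM under gSI, against 2.22 and 2.16 FPKM in DMSO, which did not pass (log2 fold change 0.05, adjusted p = 0.532). SPG7, its partner subunit, lay under 1 FPKM on average, with a recovered length of 66851 bp and 776 to 2638 reads a library. It had 0.781 and 0.881 FPKM under gSI, against 0.539 and 0.503 FPKM in DMSO, and both gSI libraries were higher. With no filter on low values it passed (log2 fold change 0.27, SE 0.0418, adjusted p = 0.00192).

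The prohibitins, which form ring scaffolds around the matrix-facing protease, did not pass. PHB2 had 33.1 and 34.4 FPKM under gSI, against 34.0 and 33.8 FPKM in DMSO. It was level between the groups (log2 fold change -0.01, SE 0.0819, adjusted p = 0.948), except that quantile normalization turned it to 0.17 (adjusted p = 0.043). PHB had 1.77 and 1.88 FPKM under gSI, against 1.63 and 1.73 FPKM in DMSO (log2 fold change 0.08, adjusted p = 0.33).

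Over the 28 tested human members, 11 had both gSI libraries above both DMSO libraries and 11 had both below. Among all tested genes 33.9% stood wholly above and 42.4% wholly below.

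Genes that work with the members were read from lists by role. Of 14 tested partner genes of import and folding, 1 rose and 2 fell under gSI, where 22.8% of all tested genes rose and 30.3% fell. CHCHD4, which drives disulfide-coupled import of the small TIM proteins, had 0.854 and 0.838 FPKM under gSI, against 1.3 and 1.29 FPKM in DMSO. It was called as a fall (log2 fold change -0.31, adjusted p = 2.2e-05). Both gSI libraries lay under 1 FPKM, so CHCHD4 reached the filter on the mean only through its DMSO values. OXA1L, the inner membrane insertase, also fell (-0.21, adjusted p = 0.0284), and TIMMDC1, a complex I assembly factor related to the TIM proteins, rose (0.20, adjusted p = 0.00585). The chaperones known from the mitochondrial unfolded protein response did not pass. HSPD1, the matrix chaperonin, had 5.88 and 5.89 FPKM under gSI, against 7.41 and 6.22 FPKM in DMSO (log2 fold change -0.18, adjusted p = 0.0666). HSPE1, its co-chaperonin, had a log2 fold change of -0.02 (adjusted p = 0.801). HSPA9, the motor chaperone of import, had 28.8 and 27.8 FPKM under gSI, against 28.1 and 25.7 FPKM in DMSO (log2 fold change 0.07, adjusted p = 0.485).

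Of 4 tested partner genes of proteolysis, none rose and 2 fell: STOML2, a scaffold of the YME1L1 complex (log2 fold change -0.33, adjusted p = 0.00107), and OPA1, the inner membrane fusion protein that YME1L1 cleaves (-0.20, adjusted p = 0.0105). STOML2 had 18.0 and 17.4 FPKM under gSI, against 21.8 and 23.3 FPKM in DMSO. Among 9 tested regulators of mitochondrial genes and stress, 3 rose and 5 fell. Over all 6679 tested genes 22.8% rose and 30.3% fell, and these short lists were not tested against that share. ATF5, a transcription factor of mitochondrial stress, had 79.4 and 94.9 FPKM under gSI, against 35.5 and 41.4 FPKM in DMSO, and rose (log2 fold change 1.16, adjusted p = 7.3e-11). DDIT3 on the same list also rose (0.68, adjusted p = 7.3e-08), while ATF4 did not pass (-0.12, adjusted p = 0.267). TFAM, the packaging factor of mitochondrial DNA, fell (-0.46, adjusted p = 1.3e-05).

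In the mouse leukaemias no member passed the test. With 33 of 33 members tested, limma called 0 in each of the contrasts of 0, 0.4 and 0.8 against 8 g/kg, in the slope over the ranked diets and in the F test across the 4 diets. It also called 0 of all 9943 tested genes (0%), as did limma-voom on the recovered reads. The smallest adjusted p of any gene was 0.121 for 0 against 8 g/kg, 0.389 for 0.4, 0.998 for 0.8, 0.182 for the slope and 0.441 for the F test. At an unadjusted p under 0.05 there were 4 members for 0 against 8 g/kg, where 10.3% of all genes had such a p. There were 3 members at 0.4 g/kg (10.7% of all genes), 3 at 0.8 g/kg (4.35%), 6 in the slope (12.3%) and 3 in the F test (6.31%).

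Most members were nonetheless somewhat lower on each restricted diet. The median log2 fold change of the 33 members was -0.13 at 0 g/kg, -0.11 at 0.4 g/kg and -0.09 at 0.8 g/kg against 8 g/kg, beside -0.01, -0.05 and -0.04 over all tested genes. In each of these contrasts, which share the control libraries, 26 of the 33 were below 0, beside 52.2%, 59% and 60% of all genes. Both restricted libraries were below both control libraries for 16 members at 0 g/kg, 18 at 0.4 g/kg and 14 at 0.8 g/kg, where 22.9%, 31.8% and 22.5% of all genes did the same. Both were above for 2, 3 and 2 members, beside 19.1%, 16.9% and 10.6%. Summed over all members, FPKM were 948 and 897 on the 0 g/kg diet, 923 and 931 on the 0.4 g/kg diet and 894 and 970 at 0.8 g/kg, against 996 and 1011 at 8 g/kg. Every restricted library was thus below both controls in this sum.

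For 10 members all 6 restricted libraries were below both control libraries, namely Tomm5, Tomm7, Tomm20, Tomm22, Tomm70a, Samm50, Phb, Phb2, Clpp and Clpx, and for none were all 6 above. Over all tested genes 11.4% were below in this way and 4.73% above. The 10 include 6 of the 9 genes grouped with the outer membrane (a group that counts the cytosolic Tomm34), both prohibitins and both subunits of the ClpXP protease.

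**Figure D3:**
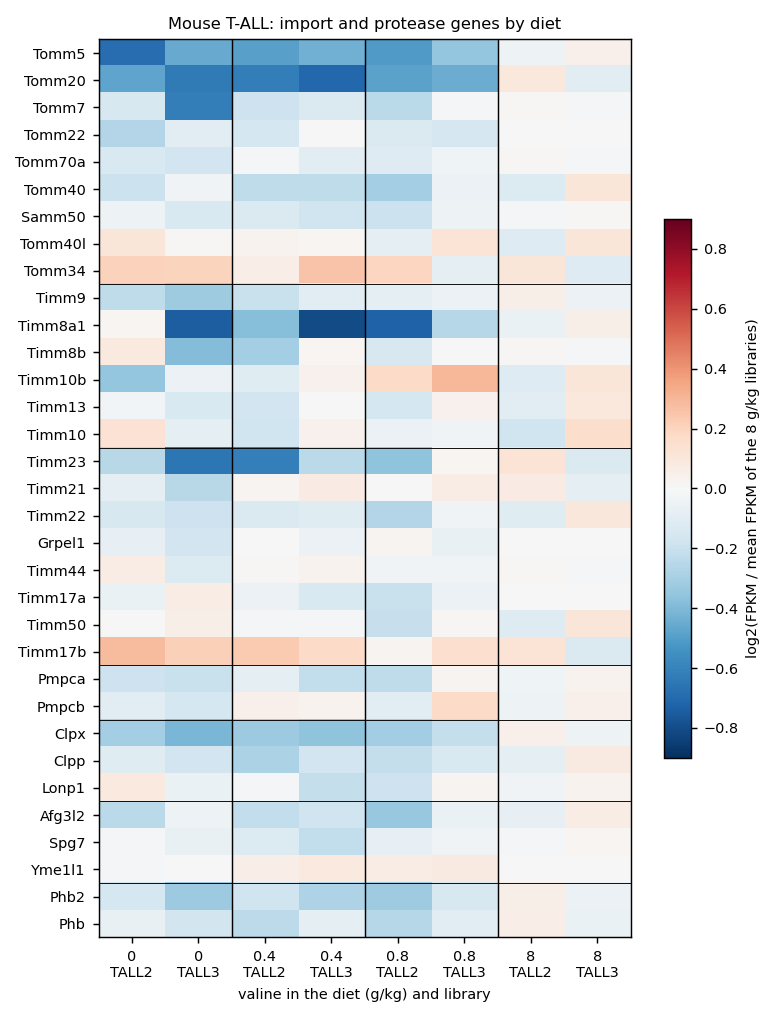
Each mouse member (rows, by role) in each library (columns, by diet and library name), coloured by log2 of its FPKM over the mean of the 8 g/kg libraries. Values range from -0.81 to 0.3, Tomm5, Tomm20 and Clpx are blue in all 6 restricted columns, and Timm17b is red in all 6.

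Promoters are shown for Tomm5 and Clpx, as examples of the members below the controls in all restricted libraries, and for Timm9, which fell in KOPTK1, as an example of a window that holds a searched motif. Each window was read from RefSeq (GRCm38.p6) as 250 bases before to 50 after the annotated start, 5′ to 3′ along the gene's strand. Capitals mark CACGTG, the E-box core that MYC and other factors bind. The Tomm5 window is chr4:45108064-45108363 (minus strand), that of Clpx chr9:65294010-65294309 (plus strand) and that of Timm9 chr12:71136626-71136925 (minus strand).
Tomm5: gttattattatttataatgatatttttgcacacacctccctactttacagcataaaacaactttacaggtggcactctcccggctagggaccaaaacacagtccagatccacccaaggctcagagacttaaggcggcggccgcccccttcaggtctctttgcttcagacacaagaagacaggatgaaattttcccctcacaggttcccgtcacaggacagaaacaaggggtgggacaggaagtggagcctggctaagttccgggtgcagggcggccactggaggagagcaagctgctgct
Clpx: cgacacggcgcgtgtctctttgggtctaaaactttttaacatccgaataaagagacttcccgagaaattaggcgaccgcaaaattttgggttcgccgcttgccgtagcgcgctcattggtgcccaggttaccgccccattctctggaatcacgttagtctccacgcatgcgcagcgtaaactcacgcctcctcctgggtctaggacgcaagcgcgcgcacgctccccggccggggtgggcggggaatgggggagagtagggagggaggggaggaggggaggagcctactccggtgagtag
Timm9: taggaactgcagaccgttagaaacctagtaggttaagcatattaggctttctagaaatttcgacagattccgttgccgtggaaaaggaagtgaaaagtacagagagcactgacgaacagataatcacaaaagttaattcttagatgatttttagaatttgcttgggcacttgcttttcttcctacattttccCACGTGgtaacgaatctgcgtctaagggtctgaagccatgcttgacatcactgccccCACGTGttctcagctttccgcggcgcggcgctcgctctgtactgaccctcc

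The Timm9 window held CACGTG 58 bases and 1 base before the start, and the windows of Tomm5 and Clpx held none of the motifs searched on either strand. Promoters were matched for 29 of the 33 members. CACGTG was present in 6 of them (20.7%), Lonp1, Phb, Timm10, Timm8a1, Timm9 and Tomm20, beside 10.8% of the promoters of 7803 tested genes. The core of the sites of NRF1, a regulator of nuclear genes for mitochondria, was searched as GCGC and GCGC with any dinucleotide between them. It was present in 4 promoters (13.8%), those of Phb, Spg7, Timm8b and Tomm20, beside 15.3% of the 7803. With AT as that dinucleotide it was in none, beside 2.37%. The elements TGATGCAA and TGATGAAA, of the type known from amino acid response genes, were in none of the 29, beside 0.551% and 0.525% of the 7803. A match describes the letters only.

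Tomm20 lies on chromosome 8 at 126930667 to 126945844 (GRCm38). It had 11 and 9.8 FPKM at 0 g/kg, 9.91 and 9.33 FPKM at 0.4 g/kg and 10.9 and 11.2 FPKM at 0.8 g/kg, against 16.3 and 14.2 FPKM at 8 g/kg. All restricted libraries lay close together, below both controls, with no order by dose. The log2 fold change was -0.51 at 0 g/kg (SE 0.109, limma adjusted p = 0.319), -0.61 at 0.4 g/kg (adjusted p = 0.389) and -0.43 at 0.8 g/kg (adjusted p = 0.998). Of the 50-base words of its exons 6.2% occur in other genes of the annotation. Tomm5, the gene of a small TOM subunit on chromosome 4 at 45105208 to 45108114, had 12.3 and 14.4 FPKM at 0 g/kg, 14.1 and 14.6 FPKM at 0.4 g/kg and 13.9 and 15.5 FPKM at 0.8 g/kg, against 19.1 and 20.4 FPKM at 8 g/kg. All its restricted libraries were likewise below both controls, on 141 to 379 reads a library. Its group means ranked with the valine of the diet, but the libraries of the restricted diets overlapped one another. The log2 fold change was -0.54 at 0 g/kg (SE 0.111, adjusted p = 0.318), -0.43 at 0.4 g/kg and -0.40 at 0.8 g/kg.

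Tomm7, another small subunit, had 30.3 and 21.8 FPKM at 0 g/kg, 29.5 and 30.7 FPKM at 0.4 g/kg and 28.4 and 33.2 FPKM at 0.8 g/kg, against 33.8 and 33.3 FPKM at 8 g/kg. TALL3 at 0 g/kg stood apart below the rest, and TALL3 at 0.8 g/kg was almost level with the controls (log2 fold change at 0 g/kg -0.37, SE 0.161, adjusted p = 0.501). Tomm22 had log2 fold changes of -0.18, -0.08 and -0.14 at 0, 0.4 and 0.8 g/kg, Tomm70a of -0.15, -0.06 and -0.08, and Samm50 of -0.09, -0.15 and -0.12. The channel gene Tomm40 had 42.6 and 47.8 FPKM at 0 g/kg, 41.6 and 41.7 FPKM at 0.4 g/kg and 39.5 and 47.0 FPKM at 0.8 g/kg, against 44.9 and 52.7 FPKM at 8 g/kg. The groups overlapped at 0 and 0.8 g/kg. Its paralogue Tomm40l had log2 fold changes of 0.06, 0.02 and 0.02, but 56.3% of its 50-base words lie in the overlapping gene Nr1i3, so its values are uncertain.

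Tomm34 was higher in both 0 g/kg libraries, with 49.9 and 49.7 FPKM at 0 g/kg, 45.0 and 51.6 FPKM at 0.4 g/kg and 49.4 and 40.7 FPKM at 0.8 g/kg, against 46.5 and 39.9 FPKM at 8 g/kg. The groups overlapped at 0.4 and 0.8 g/kg, and the log2 fold change of 0.21 at 0 g/kg (SE 0.133, adjusted p = 0.625) did not pass.

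Among the small TIM chaperones, Timm9 had 8.58 and 8.04 FPKM at 0 g/kg, 8.75 and 9.36 FPKM at 0.4 g/kg and 9.49 and 9.7 FPKM at 0.8 g/kg, against 10.4 and 9.68 FPKM at 8 g/kg. Its group means rank with the valine of the diet, with log2 fold changes of -0.24 (SE 0.0973, adjusted p = 0.475), -0.13 and -0.06, and overlap at 0.8 g/kg. The slope was -0.08 per diet rank (SE 0.028, adjusted p = 0.327). Timm8a1 had 1.57 and 0.925 FPKM at 0 g/kg, 1.19 and 0.887 FPKM at 0.4 g/kg and 0.935 and 1.3 FPKM at 0.8 g/kg, against 1.49 and 1.61 FPKM at 8 g/kg. It was low throughout, on 19 to 67 reads a library, and 41% of its 50-base words occur in other genes, chiefly Gm9797. Timm8b had log2 fold changes of -0.15, -0.14 and -0.07, Timm10 of 0.04, -0.05 and -0.03, and Timm13 of -0.08, -0.08 and -0.06. Timm10b had 2.15 and 2.64 FPKM at 0 g/kg, 2.54 and 2.82 FPKM at 0.4 g/kg and 3.08 and 3.37 FPKM at 0.8 g/kg, against 2.53 and 2.95 FPKM at 8 g/kg, so only its 0.8 g/kg libraries were both above the controls (log2 fold change 0.18, SE 0.161).

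In the inner membrane translocases, Timm17b had the highest fold change of any member at 0 g/kg. It had 12.0 and 11.4 FPKM at 0 g/kg, 11.6 and 11.1 FPKM at 0.4 g/kg and 10 and 10.9 FPKM at 0.8 g/kg, against 10.7 and 8.97 FPKM at 8 g/kg. Both libraries were higher at 0 and 0.4 g/kg, with log2 fold changes of 0.24 (SE 0.113, adjusted p = 0.526) and 0.19 (adjusted p = 0.59), and the groups overlapped at 0.8 g/kg (0.08). Its paralogue Timm17a had 5.62 and 6.16 FPKM at 0 g/kg, 5.65 and 5.35 FPKM at 0.4 g/kg and 5.12 and 5.66 FPKM at 0.8 g/kg, against 5.86 and 5.88 FPKM at 8 g/kg. It was level at 0 g/kg (log2 fold change 0.0, adjusted p = 0.994) and slightly lower at the other doses (-0.08 and -0.11). The ratio of Timm17a to Timm17b FPKM was 0.466 and 0.54 on the 0 g/kg diet, 0.487 and 0.48 on the 0.4 g/kg diet and 0.512 and 0.521 at 0.8 g/kg, against 0.547 and 0.655 at 8 g/kg. All restricted ratios were below both control ratios, but the nearest, 0.54 and 0.547, were almost equal, and the controls lay farther apart. Among the other ratios read in mouse, Tomm20 to Tomm22 was likewise below its controls and Tomm40l to Tomm40 above. Those of Lonp1 to Clpp, Clpx to Clpp, Phb to Phb2 and Timm8a1 to Timm8b overlapped their controls. The share of all gene pairs that separate in this way was not computed.

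Timm22 had 10.8 and 10.5 FPKM at 0 g/kg, 10.9 and 11.1 FPKM at 0.4 g/kg and 9.93 and 11.7 FPKM at 0.8 g/kg, against 11.1 and 12.8 FPKM at 8 g/kg. Both 0 g/kg libraries were below both controls (log2 fold change -0.15, SE 0.118, limma adjusted p = 0.681), which did not pass, and the groups overlapped at 0.4 and 0.8 g/kg. Timm21 had log2 fold changes of -0.15, 0.05 and 0.03 at 0, 0.4 and 0.8 g/kg, Grpel1 of -0.12, -0.02 and -0.02, Timm44 of -0.02, 0.02 and -0.03, and Timm50 of 0.03, -0.01 and -0.09. Timm23, the channel gene, had log2 fold changes of -0.29, -0.28 and -0.11 on 25 to 73 reads a library. Its values are uncertain, since 57.5% of its 50-base words occur in other genes, chiefly Gm10273.

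The peptidase subunits differed little between the diets. Pmpca had 44.7 and 44.2 FPKM at 0 g/kg, 47.8 and 43.5 FPKM at 0.4 g/kg and 43.3 and 51.6 FPKM at 0.8 g/kg, against 49.5 and 52.0 FPKM at 8 g/kg (log2 fold change at 0 g/kg -0.19, SE 0.107, adjusted p = 0.58). Pmpcb had log2 fold changes of -0.12, 0.04 and 0.04. Pmpca over Pmpcb was 2.69 and 2.78 on the 0 g/kg diet, 2.61 and 2.4 on the 0.4 g/kg diet and 2.62 and 2.58 at 0.8 g/kg, against 2.88 and 2.85 at 8 g/kg. The restricted ratios were all below the controls, by a margin far smaller than the change of this ratio in KOPTK1, and the difference between the systems was not tested.

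Of the matrix proteases, Clpx, on chromosome 9 at 65294260 to 65330658, had 15.7 and 14.6 FPKM at 0 g/kg, 15.5 and 15.1 FPKM at 0.4 g/kg and 15.6 and 16.7 FPKM at 0.8 g/kg, against 20 and 18.8 FPKM at 8 g/kg. The restricted libraries were tightly grouped below the controls. The log2 fold changes were -0.34 (SE 0.0892, adjusted p = 0.371), -0.32 (adjusted p = 0.409) and -0.25 (adjusted p = 0.998). Clpp was nearer to its controls, with 35.7 and 34.2 FPKM at 0 g/kg, 31.7 and 34.2 FPKM at 0.4 g/kg and 33.3 and 35.0 FPKM at 0.8 g/kg, against 36.3 and 40.8 FPKM at 8 g/kg (log2 fold changes -0.14, -0.22 and -0.17). Lonp1 had 56.2 and 50.8 FPKM at 0 g/kg, 52.3 and 45.7 FPKM at 0.4 g/kg and 46.5 and 53.8 FPKM at 0.8 g/kg, against 51.9 and 54.0 FPKM at 8 g/kg. It overlapped its controls on every diet (log2 fold changes 0.01, -0.11 and -0.08, SE 0.113 each).

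**Figure D4:**
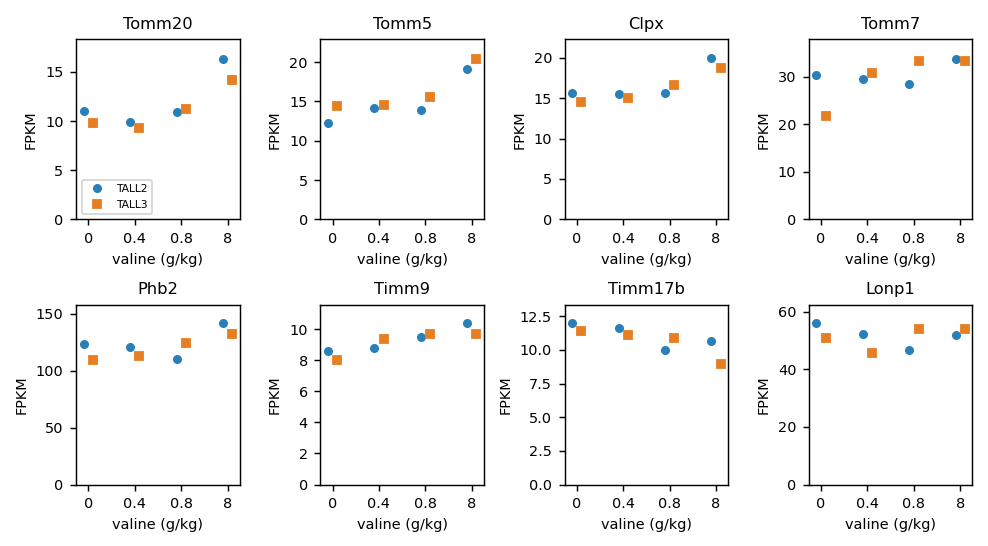
FPKM of 8 mouse members by diet (valine in g/kg, evenly spaced), for TALL2 (blue circles) and TALL3 (orange squares), axes from 0. Tomm20, Tomm5 and Clpx lie near one level on the 3 restricted diets and higher at 8 g/kg, while Lonp1 shows no separation.

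Yme1l1 had 44.3 and 44.5 FPKM at 0 g/kg, 46.6 and 47.5 FPKM at 0.4 g/kg and 46.8 and 47.3 FPKM at 0.8 g/kg, against 44.5 and 44.9 FPKM at 8 g/kg. Its libraries agreed closely, with log2 fold changes of -0.01, 0.07 and 0.07 (SE 0.0679 each). Spg7 had 24.4 and 23.4 FPKM at 0 g/kg, 22.5 and 21.1 FPKM at 0.4 g/kg and 23.3 and 24.0 FPKM at 0.8 g/kg, against 24.2 and 24.9 FPKM at 8 g/kg, lowest at 0.4 g/kg (log2 fold change -0.17, SE 0.0792, adjusted p = 0.525). Afg3l2 had log2 fold changes of -0.13, -0.19 and -0.19. The prohibitin gene Phb2 had the highest FPKM of the mouse members, with 123 and 109 FPKM at 0 g/kg, 121 and 113 FPKM at 0.4 g/kg and 110 and 124 FPKM at 0.8 g/kg, against 142 and 132 FPKM at 8 g/kg. All restricted libraries were below both controls, with log2 fold changes of -0.23 (SE 0.104, adjusted p = 0.507), -0.22 and -0.22. Phb had log2 fold changes of -0.11, -0.15 and -0.17, and 30.3% of its 50-base words occur in other genes, chiefly Gm7666.

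Summed markers of other cells differed between some of the diets in the sorted cells. Singly, 0 of the 10 neutrophil, 9 erythroid and 3 macrophage markers tested were called by limma in each contrast. The 10 neutrophil markers summed to 546 and 306 FPKM at 0 g/kg, 12.1 and 72.4 on the 0.4 g/kg diet and 13.5 and 6.66 at 0.8 g/kg, against 0.737 and 8.26 at 8 g/kg, where 5 and 1 of them were at 0. The 9 erythroid markers listed of 10 summed to 8.71 and 8.57 FPKM at 0 g/kg, with 5 at 0 in TALL2, 61.2 and 46.1 on the 0.4 g/kg diet and 42.2 and 33.1 at 0.8 g/kg, against 102 and 285 at 8 g/kg. The 3 macrophage markers listed of 6 summed to 32.9 and 30.3 FPKM at 0 g/kg and to 4.49 to 9.41 FPKM in the other libraries. The 12 T-ALL and thymocyte markers summed to between 1618 and 2777 FPKM and overlapped between all diets. The part of these cells in the members' values was not tested.

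The partner genes in mouse gave 0 calls of 19 for import and folding, 0 of 13 for proteolysis and 0 of 12 for regulators in each contrast. Hspe1 had 17.6 and 21.7 FPKM at 0 g/kg, 14.9 and 15.1 FPKM at 0.4 g/kg and 15.7 and 14.2 FPKM at 0.8 g/kg, against 13.1 and 13.0 FPKM at 8 g/kg. All restricted libraries were above both controls (log2 fold change at 0 g/kg 0.55, SE 0.119, adjusted p = 0.334). Its partner Hspd1 had 74.7 and 74.1 FPKM at 0 g/kg, 80.6 and 74.6 FPKM at 0.4 g/kg and 69.0 and 83.4 FPKM at 0.8 g/kg, against 73.9 and 77.9 FPKM at 8 g/kg, with full overlap (log2 fold change at 0 g/kg -0.03, adjusted p = 0.948). Hspa9 had a log2 fold change of 0.07 at 0 g/kg (adjusted p = 0.911). Among the regulators Myc had 161 and 112 FPKM at 0 g/kg, 178 and 156 FPKM at 0.4 g/kg and 185 and 202 FPKM at 0.8 g/kg, against 267 and 222 FPKM at 8 g/kg (log2 fold change at 0 g/kg -0.86, SE 0.192, adjusted p = 0.358). Atf5, which rose in KOPTK1, had log2 fold changes of 2.03 at 0 g/kg (SE 0.757, limma adjusted p = 0.463), 1.24 at 0.4 g/kg and 1.19 at 0.8 g/kg. At 0, 0.4 and 0.8 g/kg those of Ddit3 were 0.84, 0.0 and 0.12, and those of Atf4 were 0.29, -0.09 and -0.14. Of the 12 regulators tested, 7 were below 0 at 0 g/kg.

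Set beside each other, the 8 members that fell in KOPTK1 were all below 0 at 0 g/kg in mouse, and 6 of them at 0.4 g/kg and at 0.8 g/kg. Among these 8, Yme1l1 was level at 0 g/kg (-0.01, SE 0.0679), and Timm8a1 overlapped its controls (-0.20, SE 0.237). In each of the contrasts 26 of all 33 members were below 0, beside the 52.2%, 59% and 60% of all genes given above. Of the 5 that rose, 3 were below 0 in each of these contrasts. At 0 g/kg the others were TOMM34 at 0.21 and LONP1 at 0.01. Across the 28 gene pairs tested in both tables, Pearson's r of the log2 fold changes was 0.46 for 0 against 8 g/kg, 0.40 for 0.4 and 0.29 for 0.8, and without TOMM20 it was 0.29, 0.13 and 0.04 over 27 pairs. Genes are not independent replicates, the tables were normalised separately, and no test was made of this relation. Adding 1 FPKM shrinks the fold changes of low genes most, and human FPKM are low for their reads. In KOPTK1 TIMM9 fell by 42.8% and TOMM20 by 41.9% in mean FPKM, but they lay at -0.50 and -0.70 on this scale. The signs matched for 16 of the 28 pairs at each dose. Neither this share nor the correlation was computed over all genes found in both species, so it is not known whether the members differ from them.

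**Figure D5:**
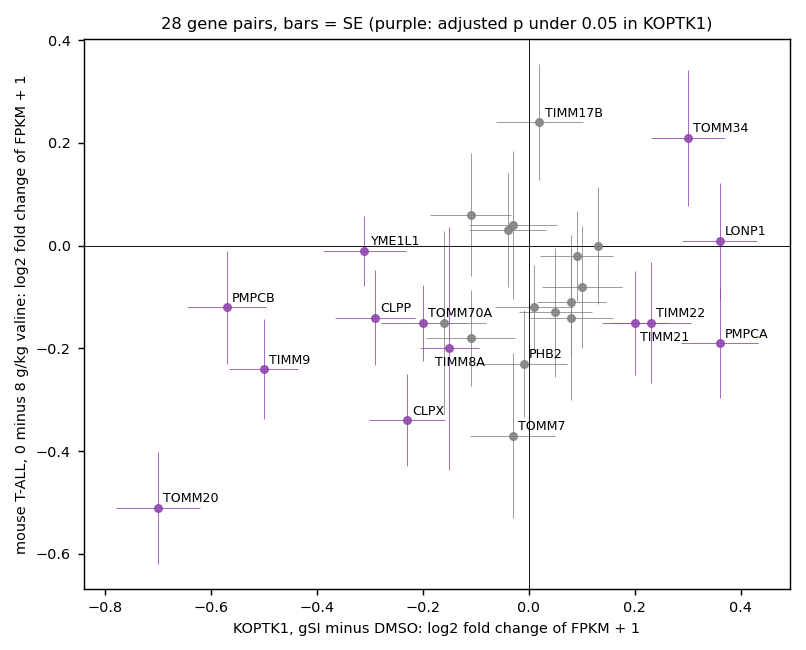
Log2 fold changes of FPKM + 1 with SE bars for 28 gene pairs, gSI minus DMSO in KOPTK1 on the horizontal axis and 0 minus 8 g/kg valine in mouse on the vertical axis, purple where KOPTK1 passed. TOMM20 lies alone at the lower left (-0.70 and -0.51). The other points lie on both sides of 0 on the horizontal axis and mostly below 0 on the vertical axis.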

How the data were processed

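RNA was measured in 12 libraries, 4 of human KOPTK1 cells and 8 of sorted mouse T-ALL cells, 2 per group. A directional library kit was used, per the labels' protocols. The submitters' processing notes name STAR, edgeR, hg19 and mm10. The sources used here do not give their roles, the gene model or the gene length. Each species has its own table of FPKM values, normalised and deposited by the authors, with reads per library as in the report. The members, lists and tests were chosen with earlier results of these data known.

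Across libraries, a gene's FPKM values were whole multiples of a step within a relative 1e-12. Reads and lengths were thereby recovered for 100% of rows, with a multiplier for 489 human and 13 mouse rows and for 0 members, and are estimates. Replicates differed beyond counting error (chi-square per degree of freedom 5.73 to 93.4).

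The test was limma 3.58.1 (R 4.3.3), two-sided, fitted to log2(FPKM + 1) with a trend of variance on mean, for all genes whose mean reached 1 FPKM. P-values were adjusted over these genes by Benjamini-Hochberg, with a threshold of 0.05. All 4 diets entered 1 fit, and the slope used diet ranks. The fits were also tested on simulated data.

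Every member is accounted for by role. Values of each library are given for the members called in each comparison, at most 8 in either direction. Directions with fewer than 3 were filled up by smallest p. The member with the smallest p of each role group, paralogue pairs and genes of the mitochondrial unfolded protein response were added. TOMM7, TOMM22, TIMM10, SAMM50, AFG3L2, SPG7, PHB, CHCHD4, STOML2, ATF5 and mouse Clpp and Myc were added after their values were seen. So were the fold changes of mouse Atf5 and those of DDIT3 and ATF4 in both species. Mouse coordinates and shared 50-base words, counted on both strands, are from GENCODE vM21 (GRCm38). Human coordinates and shared sequence were not analysed here, so human paralogues and pseudogenes may share reads.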

Additional observations from a re-analysis of the deposited data

How the results depend on the processing

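Settings varied were the pseudocount (0.1 and 5), the filter (none, or 5 FPKM), scaling (median-of-ratios, quantile), the variance trend, a block on the replicate number, fits of only the diets compared, and each library left out. The voom fit of the recovered reads and the contrasts without both 0.4 g/kg libraries were chosen after seeing the data. In KOPTK1 the number of members called was 13 and became 3 of 8 tested at a filter of 5 FPKM, which leaves few members, and 7 to 13 with a library left out (8 without gSI replicate 1, 7 without gSI replicate 2). The members' median log2 fold change became -0.18 at that filter and 0.04 under quantile normalization, and ran from -0.07 to 0.04 with a library left out, so its sign is not fixed. PHB2 reversed to 0.17 under quantile normalization (adjusted p = 0.043). The cause was not tested. In mouse no setting called a member. With a library left out the medians ran from -0.16 to -0.08 at 0 g/kg (-0.08 without TALL3 at 0 or at 8 g/kg), -0.14 to -0.09 at 0.4 g/kg and -0.17 to -0.03 at 0.8 g/kg, and median-of-ratios scaling gave -0.06 at 0.4 g/kg. With the replicate block 13 members were called in KOPTK1 and 0 in mouse. The labels do not say what the numbers mark, so the main fits had no block. Deviations of same-numbered libraries correlated at 0.258 in KOPTK1. In mouse the correlation was 0.743 for 0.8 with 8 g/kg, 0.566 for 0 with 8 and 0.0588 for 0.4 with 8. It was 0.425 for 0 with 0.4, 0.363 for 0 with 0.8 and -0.174 for 0.4 with 0.8. The main fits take no account of such correlation. Among the members tested, the fewest reads stood behind Timm8a1 (19 to 67) and Timm23 (25 to 73).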
